A study of Homo sapiens with 6 samples.

Results

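The regions described here are distal E2F1 binding sites that were called only in GSK126-treated breast cancer cells: 2694 of the 14276 E2F1 peaks of that library, out of 290675 peaks in the 5 peak lists of the study. They were chosen by the E2F1 peak lists themselves. A GSK126 peak was taken when its summit lay more than 1 kb from every transcription start site (TSS) of GENCODE v44 and no base of it overlapped an E2F1 peak of the DMSO or the untreated library. All libraries came from MDA-MB-231, a human cell line established from triple-negative breast cancer. Chromatin immunoprecipitation sequencing (ChIP-seq) with an anti-E2F1 antibody was performed on untreated cells, after 72 h in DMSO, the solvent, and after 72 h in 1 μM GSK126. H3K27me3 was profiled in cells without GSK126 that had been transduced for 24 h with lentivirus that delivered either a control hairpin (control shRNA) or one that targets E2F1 (shE2F1), followed by selection in 2 μg/ml puromycin for 72 h. Each condition was 1 library, so no difference between conditions could be tested against replicates. Intervals given after a share are exact 95% Clopper-Pearson intervals and cover counting error only. Absence from the DMSO or untreated list means that no peak was called there, and the signal below the calling limit is unknown. The DMSO list held 15703 peaks and the untreated list only 1056, so a lack of overlap with the untreated list carries little information.

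E2F1 is a transcription factor that switches on genes for DNA replication and the cell cycle, mostly from promoters rich in CpG. EZH2 is the enzyme of Polycomb repressive complex 2 (PRC2) that places the repressive mark H3K27me3, and GSK126 is a small-molecule inhibitor of EZH2. Distal regulatory elements of basal-like breast cancer cells are commonly occupied by AP-1, the JUN and FOS family dimer, and CTCF organises chromatin loops from sites of its own.

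To show what such a site looks like, the reference sequence within 100 bp of the summit is given for 6 strong regions, read from hg38 on the plus strand and named by the nearest protein-coding gene. Capitals mark matches to the E2F motif (TTNNCGC with each N a C or a G, on either strand), the AP-1 motif (TGANTCA) or the CTCF core. The ARID5A region is shown because it was the strongest with an E2F motif, and it also held 2 AP-1 matches.
ARID5A (chr2:96556844-96557044): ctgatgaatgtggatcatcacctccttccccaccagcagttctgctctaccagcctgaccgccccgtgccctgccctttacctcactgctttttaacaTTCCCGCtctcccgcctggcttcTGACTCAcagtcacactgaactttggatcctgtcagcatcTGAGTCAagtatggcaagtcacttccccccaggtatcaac
The KRT80 region was among the strongest with an AP-1 match and no E2F match.
KRT80 (chr12:52147427-52147627): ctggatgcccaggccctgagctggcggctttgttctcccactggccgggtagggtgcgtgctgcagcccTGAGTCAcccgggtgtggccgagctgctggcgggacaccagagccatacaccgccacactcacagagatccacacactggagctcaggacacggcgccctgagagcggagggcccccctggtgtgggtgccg
The ELP6 and SLC25A33 regions were the strongest with a CTCF core, and each also held an E2F match.
ELP6 (chr3:47522164-47522364): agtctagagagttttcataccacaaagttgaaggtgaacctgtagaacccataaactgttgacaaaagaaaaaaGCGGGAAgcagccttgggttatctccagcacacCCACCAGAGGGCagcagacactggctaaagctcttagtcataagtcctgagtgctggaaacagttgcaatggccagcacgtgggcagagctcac
SLC25A33 (chr1:9495346-9495546): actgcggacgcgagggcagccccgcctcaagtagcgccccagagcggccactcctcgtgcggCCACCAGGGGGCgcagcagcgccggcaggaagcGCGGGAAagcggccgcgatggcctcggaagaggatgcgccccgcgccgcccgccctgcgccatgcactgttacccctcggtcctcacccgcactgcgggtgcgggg
The ADAMTS16 and RDH8 regions were the strongest with none of these matches. Both were rich in G and C, at 65.7% and 67.7% of the window. No match says only that these letters were not in the window.
ADAMTS16 (chr5:5271313-5271513): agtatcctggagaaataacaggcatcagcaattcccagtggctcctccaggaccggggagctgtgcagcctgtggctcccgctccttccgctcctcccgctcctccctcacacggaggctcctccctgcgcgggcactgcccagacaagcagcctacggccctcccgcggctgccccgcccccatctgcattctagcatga
RDH8 (chr19:10027659-10027859): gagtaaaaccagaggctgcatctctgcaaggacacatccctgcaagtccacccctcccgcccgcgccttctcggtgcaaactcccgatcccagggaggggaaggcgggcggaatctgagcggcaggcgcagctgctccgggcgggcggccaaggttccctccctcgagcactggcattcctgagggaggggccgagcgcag

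The single strongest region by −log10 q lay in intron 11 of 22 of CLOCK, a core transcription factor of the circadian clock. Its fold enrichment over local background was 19.0 with a −log10 q of 81.5, which corresponded to 86 fragments at the summit over a background of 3.58. The AP-1 match was centred 2 bp from the summit, and the nearest DMSO peak was 62264 bp away. The region nearest to KRT80, a type II keratin gene, lay between genes, 38222 bp from the KRT80 TSS (chr12:52147392-52147717). It had a fold of 14.4, a −log10 q of 79.6 and 100 fragments, the most of any region in the set. Next came a region in an exon of SNX33 outside its coding sequence. SNX33 encodes a sorting nexin of endocytosis, and the region had a fold of 17.3 (−log10 q 70.7). A region in ZP3, a gene of the egg coat, had a fold of 19.3 (−log10 q 68.7). These 4 strongest regions all held an AP-1 match and none held an E2F match.

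The ARID5A region lay 9554 bp downstream of a TSS of ARID5A, a regulator of inflammatory mRNA stability, and had a fold of 19.1 (−log10 q 67.3). The region nearest to HS3ST3A1, a heparan sulfate sulfotransferase gene, lay 208397 bp from its TSS and had a fold of 19.1 (−log10 q 66.6). In MB, the myoglobin gene, an intronic region had a fold of 19.5. An intronic region of SHC1, an adaptor of growth factor receptors, lay 1578 bp from a TSS and had a fold of 12.2 (−log10 q 58.5). The CGN region fell in a coding exon of this tight-junction gene, with a fold of 13.1 and matches to both motifs. The regions nearest to RNASE2, an eosinophil ribonuclease, PRSS58, a trypsin-like protease, and BDH1, an enzyme of ketone body metabolism, had folds of 20.1, 17.2 and 11.5. All of these last 3 held an E2F match. Among the 12 strongest regions, 7 held an E2F match, 8 an AP-1 match and 3 both, and 0 overlapped an H3K27me3 peak in either shRNA library. Of the 12, 4 had their summit in an intron, 5 between genes and 3 in an exon. Their nearest DMSO peak was at least 2829 bp away.

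Most of the 2694 regions were far weaker than these. Their median fold was 4.31 (range 2.35 to 20.1), the median −log10 q was 4.58 and the median width was 360 bp. The median region had 14 fragments at its summit over a background of 2.56. A −log10 q of at least 5 was reached by 1155 regions (42.9%) and one of at least 10 by 545 (20.2%). These E2F1 values belong to the library that chose the regions and are given as description only. Among all GSK126 peaks, 49.6% had no DMSO or untreated overlap, and among distal GSK126 peaks 72.1%, shares that the rule itself fixed. At the limit of the distance rule, the members closest to a TSS lay 1002 bp from NAGS and 1007 bp from LRRC1 and RASEF. The nearest peaks left out lay 994 bp from ENSG00000278869, 989 bp from SMAD3 and 981 bp from RXRA. At the limit of the overlap rule, 1 member was 4 bp from a DMSO peak and 1 peak that was left out overlapped by 3 bp. A DMSO peak lay within 1 kb of 268 members (9.95%) and within 10 kb of 1065 (39.5%), and the median gap was 18850 bp.

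To compare the regions with other factors' sequences, 18 motifs were searched within 100 bp of each summit. The median G+C of these windows was 51.2%, against 43.8% in windows 2 kb to either side, a gap that goes along with each motif share below and whose part in them was not tested here. An E2F match was present at 296 of 2694 regions (11.0%, interval 9.83 to 12.2). This compared with 1.47% of windows 2 kb to either side and with 0.849% of all genome windows of the same length that lay more than 1 kb from a TSS. An AP-1 match was present at 318 regions (11.8%, 10.6 to 13.1), against 6.07% of the side windows and 6.25% of distal genome windows. The CTCF core was present at 33 regions (1.23%, 0.845 to 1.72), against 0.0557% and 0.0663%. The SP/KLF motif GGGGCGG, read by GC-box factors, was found at 203 regions (7.54%), against 2.00% of side windows and 0.728% of distal genome windows. TEAD matches were found at 7.46%, against 4.86% and 5.60%. The GATA motif AGATAA was less common at the regions (7.39%) than in the side windows (13.1%) or in distal genome windows (14.8%). None of the 18 motifs was found at 1177 regions (43.7%).

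The strongest regions held these motifs more often. The E2F match was present at 2.55% of the 510 regions with a −log10 q of 2 to 3, at 3.499% of the 1029 regions with 3 to 5, at 13.1% of the 610 regions with 5 to 10 and at 30.6% of the 545 regions with 10 or more (interval 26.8 to 34.7). The AP-1 match was present at 9.80%, 7.19% and 9.84% of the same 3 groups, with no steady rise, and at 24.6% of those with 10 or more (21.0 to 28.4). The CTCF core was present at 0.588%, 0.291%, 1.15% and 3.67% (2.26 to 5.61) of the 4 groups, the first 2 shares resting on 3 regions each. Among regions with a −log10 q under 5, the E2F share of 3.18% (2.37 to 4.19) and the AP-1 share of 8.06% (6.75 to 9.53) were still above the distal genome shares. Of the 545 strongest regions, 126 held an E2F match without AP-1, 93 an AP-1 match without E2F, 41 both and 285 neither.

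**Figure D1:**
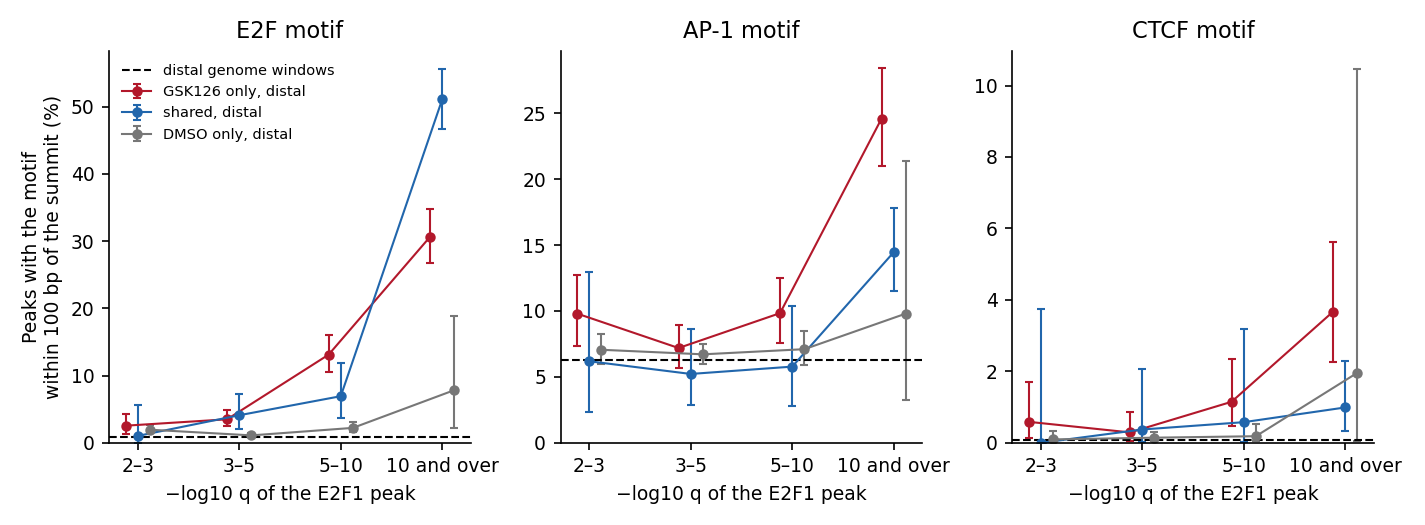
Share of peaks (%) with an E2F, AP-1 or CTCF match within 100 bp of the summit, by −log10 q of the peak, for distal peaks only under GSK126 (red), distal GSK126 peaks shared with DMSO or untreated cells (blue) and distal peaks only in DMSO (grey). Bars are exact 95% intervals and the dashed line is the share of distal genome windows. In the strongest group the GSK126-only regions stood at 24.6% for AP-1 and 30.6% for E2F, the shared regions at 14.5% and 51.1%.

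The distal GSK126 peaks that overlapped a DMSO or untreated peak (n = 1043) had a different balance of motifs. With a −log10 q of 10 or more, 51.1% of 505 shared peaks held an E2F match (46.6 to 55.5), above the 30.6% of the GSK126-only regions. For AP-1 the order was the opposite, at 14.5% (11.5 to 17.8) of shared peaks against 24.6%. Within this group the shared peaks were the stronger, with a median −log10 q of 32.3 against 16.5. They were also richer in G and C, with a median G+C of 64.2% against 57.7% and a median of 15 CG dinucleotides against 8, and the part of composition in the motif contrast was not tested. Among the 100 strongest GSK126-only regions, 44 held an E2F match and 38 an AP-1 match. For CTCF the shares were 0.990% (0.322 to 2.29) and 3.67%, and these intervals overlapped slightly. The intervals for E2F and AP-1 did not overlap, but all peaks came from 1 GSK126 library and the difference was not tested over replicates. Distal peaks found only in DMSO (n = 7924) held an E2F match at 1.60% and an AP-1 match at 6.90%, and only 51 of them reached a −log10 q of 10.

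Matches to E2F sat close to the summit. Among the 296 regions with an E2F match, the nearest match was a median of 17 bp from the summit, and 82.4% were within 50 bp. The AP-1 match was a median of 49 bp away and 52.2% were within 50 bp. Even placement over the 100 bp on each side would give values near these, so they show little centring on the summit. Over a wider span, 21.8% of the strongest regions had an E2F match in the 50-bp bin at the summit. For AP-1 the highest bin, centred 50 bp to one side, held 8.07%, and the raised part was broader.

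**Figure D2:**
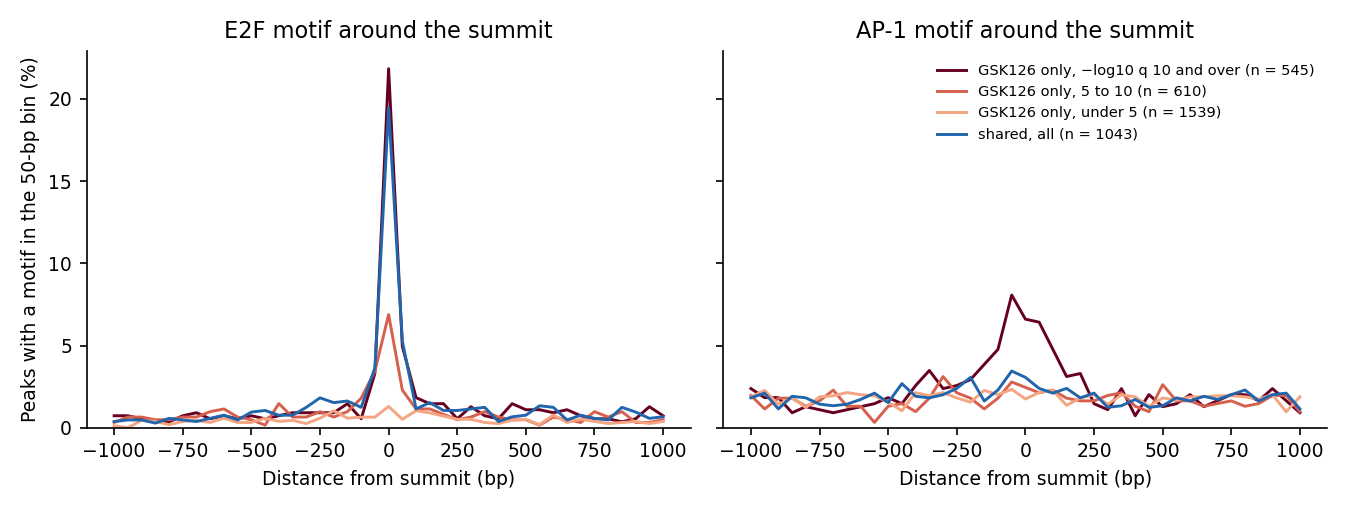
Share of peaks (%) with an E2F (left) or AP-1 (right) match in each 50-bp bin, by distance from the summit (bp), for GSK126-only distal regions in 3 groups of −log10 q and for shared distal peaks. The E2F profile of the strongest regions is a narrow peak of 21.8% at the summit, and the AP-1 profile is lower and broader.

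Base composition moved with strength as well. The median G+C of the window was 48.8% in regions with a −log10 q of 2 to 3 and 57.7% in those with 10 or more, and the median number of CG dinucleotides was 2 and 8. The motif shares were therefore read within bands of G+C. Between 45% and 50% G+C, 22 of 73 strong regions held an E2F match (30.1%), against 15 of 511 regions with a −log10 q under 5 (2.94%). In the same band, AP-1 matches were present at 39.7% of strong and 10.2% of weak regions. At 50% to 55% G+C, the E2F shares were 39.5% and 2.27% and the AP-1 shares 35.3% and 5.10%. At 65% G+C and over, strong and weak regions overlapped in their intervals for E2F, at 24.3% (18.1 to 31.4) and 15.6% (8.32 to 25.6). There the AP-1 share of strong regions was 7.51%, below the 14.3% of weak ones, with overlapping intervals.

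The summits were spread over genes much as all assembled bases are. An intron held 1469 summits (54.5%, 52.6 to 56.4), against 55.4% of all assembled bases. A further 40.8% lay between genes (39.3% of bases), 3.08% in exons outside coding sequence (4.13%) and 1.63% in coding exons (1.23%). These base shares include bases within 1 kb of a TSS, where the rule allowed no summit. The bases farther out, 92.8% of the assembly, were not divided by class. Of the 871 regions in an intron of a MANE Select transcript, 306 (35.1%, 32.0 to 38.4) were in the first intron, which holds 24.9% of such intronic bases. The first-intron share was 39.0% for shared distal peaks and 28.0% for DMSO-only distal peaks. The side of the nearest protein-coding TSS was even, with 48.6% of regions upstream. The nearest TSS of any kind belonged to a protein-coding gene for 39.8% and to a long non-coding RNA for 36.4%.

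The strongest regions lay nearer to start sites. The median distance to a TSS was 15740 bp over all members and 6421 bp for those with a −log10 q of 10 or more. In all, 1029 regions (38.2%, 36.4 to 40.1) were within 10 kb of a TSS, against 35.9% of distal genome bases. Among the 545 strongest this share was 63.9% (59.7 to 67.9), and 18.9% were within 2 kb. Regions with an E2F match were also nearer to a TSS, at a median of 6840 bp, than regions with an AP-1 match, at 11900 bp. Their median −log10 q was higher as well, at 11.1 against 6.40, and the part of strength in this distance was not tested.

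**Figure D3:**
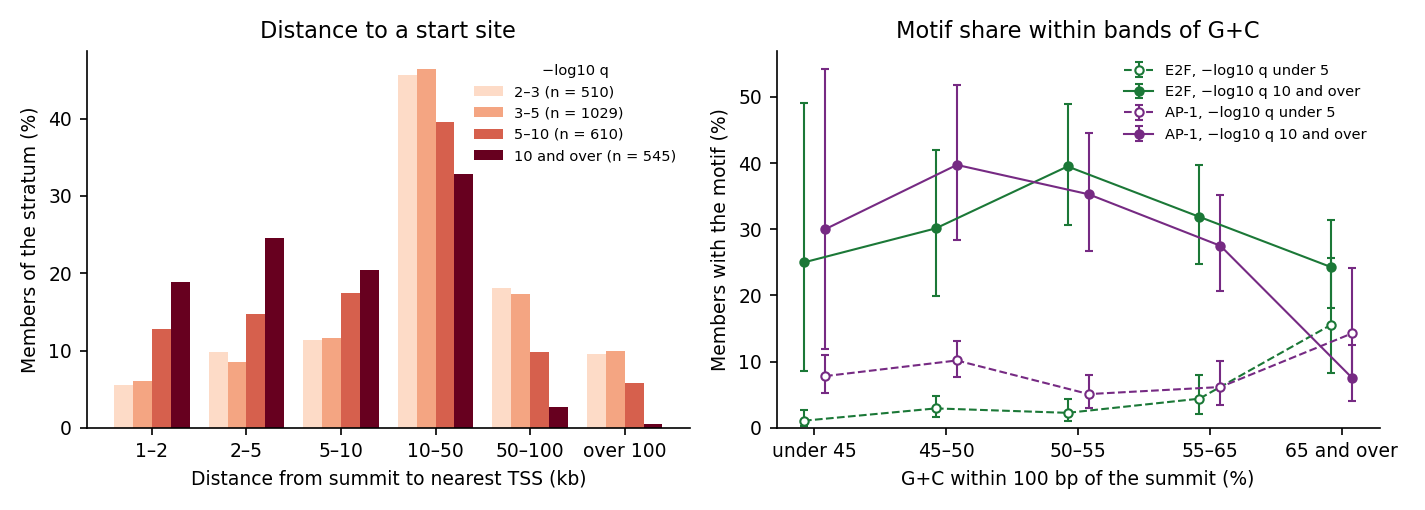
Left, share of GSK126-only distal regions (%) by distance of the summit to the nearest TSS (kb), in 4 groups of −log10 q. Right, share of regions (%) with an E2F or AP-1 match within bands of G+C of the window, for −log10 q under 5 (open) and 10 and over (filled), with exact 95% intervals. Strong regions are shifted to within 10 kb of a TSS, and their motif shares are higher in every band below 65% G+C.

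The nearest protein-coding genes numbered 1581, or 7.92% of the 19962 such genes, and 1140 of them were nearest to exactly 1 region. A GSK126 E2F1 peak also lay at a promoter of the nearest gene for 1258 regions (46.7%, 44.8 to 48.6). This was so for 53.0% of shared distal peaks and 33.6% of DMSO-only distal peaks. For the strongest regions the share was 62.9% (58.7 to 67). Of all protein-coding genes, 51.5% had such a promoter peak, which counts genes and not regions. The 6 genes nearest to the most regions had 14 to 21 each. CADM1, a cell adhesion molecule, and DPP6, a potassium channel subunit, had 21 each, and NTM, a neural adhesion protein, had 20. NCAM1 had 18, the calcium channel gene CACNA1E 15 and TNR, which encodes tenascin-R of the brain matrix, 14. Their regions were weak, with median folds of 3.49 to 4.07 and a highest −log10 q of 8.83. Only 4 of them lay inside CADM1 and 6 inside NCAM1, against 14 in DPP6, 17 in NTM, 14 in CACNA1E and 12 in TNR. The genes spanned 317 kb (NCAM1) to 1146 kb (DPP6), and the part of length in these counts was not tested. The same genes were nearest to 35 to 120 distal peaks found only in DMSO.

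Gene lists were read against the share of 7.92%. A region is said to be at a listed gene when that gene was its nearest protein-coding gene, at any distance. Of 28 E2F targets of the cell cycle, 2 were nearest to a region although all 28 had a GSK126 promoter peak. The region nearest to E2F1 itself lay 3828 bp upstream of its TSS (chr20:33690039-33690410), held both motifs and had a fold of 11.3 with a −log10 q of 47.0. Its nearest DMSO peak was 3321 bp away. The other lay in the first intron of POLA1, the catalytic subunit of DNA polymerase alpha, with a fold of 3.70. AP-1 subunit genes had a region at 3 of 11. The JUNB region had a fold of 11.98, a −log10 q of 42.4 and a DMSO peak 454 bp away. A region in intron 3 of FOSL2 had a fold of 8.45 and an AP-1 match. A region in the coding exon of JUN had a fold of 3.84 and an E2F match.

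ERK pathway and feedback genes had a region at 5 of 18, namely DUSP5, EGFR, EPHA2, SPRED2 and SPRY4. The strongest of these lay 66337 bp downstream of the TSS of SPRY4, an inhibitor of receptor tyrosine kinase signalling, with a fold of 7.27. The DUSP5 region had a fold of 4.66, and the median 31-base word of its window occurred 4119 times in the genome. A region nearest to SPRED2 lay 308647 bp from its TSS, with a fold of 5.01 and an H3K27me3 peak in both shRNA libraries. Luminal genes had a region at 4 of 14. A region in the first intron of GRHL2, an epithelial transcription factor, had a fold of 8.52, and those nearest to KRT19 and FOXA1 had 5.70 and 4.15. Nuclear factor kappa B (NF-kB) targets had a region at 3 of 19, with folds of 4.57 at ICAM1, 5.06 at IL1B and 3.94 at CCL2. Mesenchymal genes had a region at 2 of 16. The region near SNAI1, 45077 bp downstream of its TSS, had a fold of 8.67, and one in a coding exon of ZEB2 had 7.46, and both held E2F and AP-1 matches. YAP/TEAD targets had a region at 2 of 22, with folds of 6.99 at CRIM1 and 5.46 at AMOTL2. Adhesion and matrix genes had a region at 2 of 19, with a fold of 4.78 at ITGA2. Among 12 PRC2 genes, JARID2 alone was nearest to a region, which lay 539500 bp upstream of it with a fold of 12.4, a −log10 q of 55.7 and both motifs. With lists this short, 1 or 2 genes move the share, and nearness does not show that a gene is a target.

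At these sites, H3K27me3 peaks were found more often in shE2F1 cells than in control shRNA cells, although neither had received GSK126. A control peak overlapped 330 of 2694 regions (12.2%, 11.0 to 13.6) and an shE2F1 peak 550 (20.4%, 18.9 to 22.0), a difference of 8.17 percentage points (6.70 to 9.63, a normal interval for paired shares that covers counting error only). The whole control and shE2F1 lists held 123957 and 135683 peaks, and 1 library each allowed no test of the difference. An H3K27me3 peak in shE2F1 cells only was found at 322 regions (11.95%), against 30.5% of all GSK126 peaks. A peak in control cells only was found at 102 regions (3.79%), against 1.22% of all GSK126 peaks. Both lists had a peak at 228 regions, and 2042 (75.8%) had none. The difference was 28.7 points at promoter peaks only under GSK126, 12.4 at shared distal peaks and 6.25 at DMSO-only distal peaks. At the summit itself the shares were 9.61% and 15.9%, while H3K27me3 peaks covered 4.84% and 5.96% of distal genome bases.

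The overlapping H3K27me3 peaks had low values, as did the lists they came from. Their median fold was 3.18 in control and 2.996 in shE2F1 cells, against 3.17 and 2.95 over all peaks of the lists, and their median width was 971 and 1100 bp against 722 and 811 bp. Their median −log10 q was 1.67 and 1.61. The H3K27me3 lists reached down to a −log10 q of 1.007 and 1.006 and the GSK126 E2F1 list to 2.017, so the calling limits differed. With H3K27me3 peaks of at least 5 only 0.0742% and 0.483% of the regions were overlapped, a difference of 0.408 points. The stronger E2F1 regions overlapped the mark less often. Of the 545 strongest, 3.67% overlapped a control peak and 9.91% an shE2F1 peak, against 16.1% and 26.9% of the 510 weakest. Regions with an AP-1 match overlapped an shE2F1 peak at 11.3%, and regions without one at 21.6%. The shares were 13.2% with and 21.3% without an E2F match, and 2 of the 33 regions with a CTCF core had such a peak (6.06%, 0.743 to 20.2). Regions with a match were also stronger. A −log10 q of 10 or more was reached by 42.1% with and 17.3% without an AP-1 match, and by 56.4% and 15.8% for E2F. The part of strength in these motif contrasts was not tested.

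**Figure D4:**
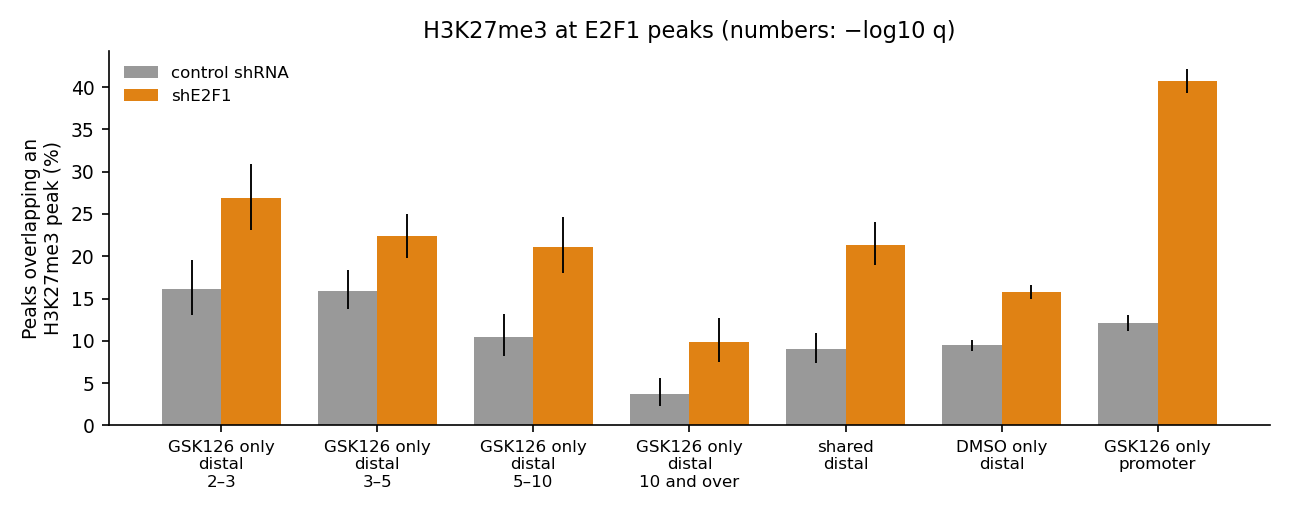
Share of E2F1 peaks (%) that overlap an H3K27me3 peak in control shRNA (grey) and shE2F1 (orange) cells, with exact 95% intervals, for GSK126-only distal regions in 4 groups of −log10 q and for the other classes of peak. In shE2F1 cells the share is 26.9% at the weakest and 9.91% at the strongest GSK126-only regions.

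The strongest region marked in shE2F1 cells only lay in KLK15, a kallikrein protease gene, with an E2F1 fold of 8.40. The next was near TRAPPC9, a vesicle tethering factor, with a fold of 7.69. The H3K27me3 peaks themselves had folds of 2.49 at KLK15 and 4.30 at TRAPPC9. The strongest marked in control cells only lay in intron 2 of AADACL4 with a fold of 16.1 and held a CTCF core. Its control H3K27me3 peak, with a −log10 q of 1.18, met only the edge of the region. That peak ended at 12658797 and the region began at 12658776. The regions near IGFL2 and SPPL2C followed, with folds of 8.25 and 6.38. Marked in both libraries were the RDH8 and SLC25A33 regions printed above, with folds of 17.3 and 15.7, and a region in PRRT1B with 10.7. At the RDH8 region the H3K27me3 fold was 3.57 in control and 3.44 in shE2F1 cells, at SLC25A33 it was 2.72 and 3.04, and at PRRT1B 4.25 and 4.01. Overlap of 1 bp counted, and not all of these peaks covered the E2F1 summit. The RDH8 control peak ended at 10027626, short of the summit, while the shE2F1 peak reached past it. Both SLC25A33 peaks began beyond the summit, at 9495503 and 9495691. The PRRT1B peaks covered the whole region.

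The regions were unevenly spread over chromosomes. Against a genome-wide density of 0.925 per Mb of assembled sequence, chromosome 20 had 1.86 (exact Poisson interval 1.54 to 2.23) and chromosome 11 also 1.86 (1.64 to 2.10). Chromosome 13 had 0.204 (0.125 to 0.315) and chromosome 21 had 0.249 (0.120 to 0.459). The highest density was 9.12 times the lowest. Among regions with a −log10 q of at least 5 the extremes were chromosomes 19 and 13, with a ratio of 13.6. Among those with at least 10 they were chromosomes 19 and 21, with a ratio of 14.1 from 41 and 2 regions. Across the 23 chromosomes the density of the regions ranked with that of shared distal peaks (Spearman rho 0.917) and of DMSO-only distal peaks (0.79) more closely than with G+C (0.4). These points share the genome and 1 cell line, whose copy number was not measured here, so copy number and binding cannot be told apart. The make-up of the regions differed too. On chromosome 22, 88% of 25 regions reached a −log10 q of 5, and on chromosome 19, 72.2% of 90, against 26.6% of 79 on chromosome 4.

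**Figure D5:**
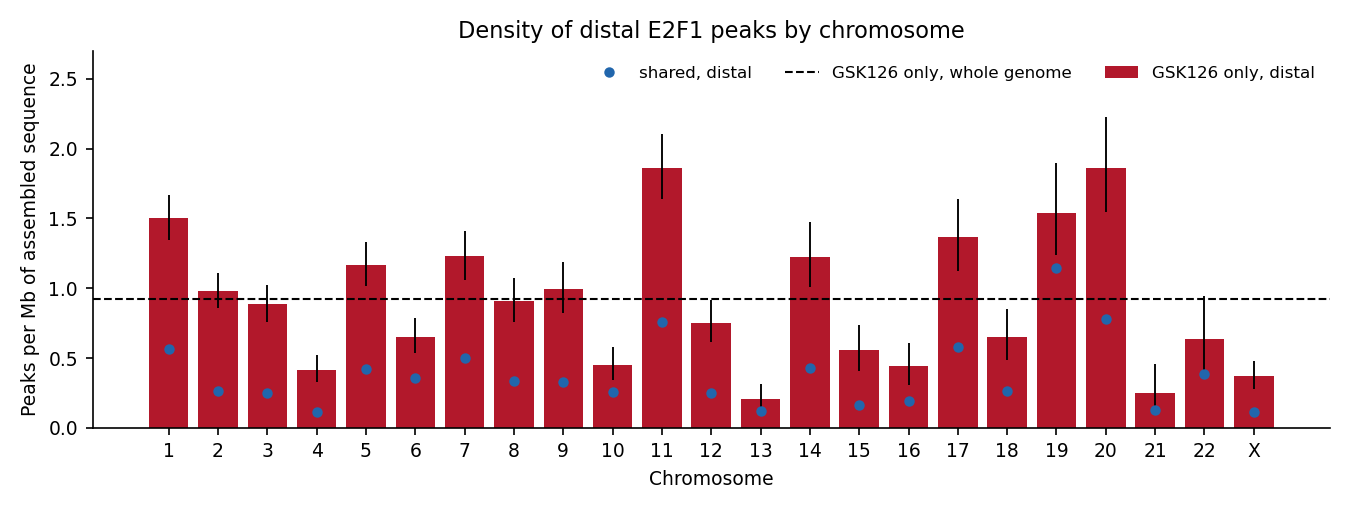
Distal E2F1 peaks per Mb of assembled sequence on each chromosome, for GSK126-only regions (bars, exact Poisson 95% intervals) and shared distal peaks (points). The dashed line is the genome-wide density of GSK126-only regions, 0.925 per Mb. Over all GSK126-only regions, chromosomes 11 and 20 stand highest at 1.86 and chromosome 13 lowest at 0.204.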

How the data were processed

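E2F1 and H3K27me3 ChIP-seq peak lists of MDA-MB-231 cells were used as deposited, 1 library per condition. Per the labels and the submitters' processing notes, the authors used FastQC 0.11.5, cutadapt 4.5, Bowtie2 2.5.2, SAMtools, Picard and MACS2 2.2.9.1 on hg38. The control passed to MACS2 is not given in the sources used here, and the input library was not used here. The deposited lists give a fold enrichment (a ratio to local background), −log10 p and −log10 q for each peak. The E2F1 lists also give the offset of the summit. For histone peaks the authors report the broad option of MACS2. The lowest −log10 q was 1.007 in the control and 1.006 in the shE2F1 H3K27me3 list. It was 2.017 in the GSK126, 2.013 in the DMSO and 2.083 in the untreated E2F1 list. The deposited score column was not used. Total read depth is unknown.

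The members, the motifs and the gene lists were chosen with earlier results of these data known. Distances were taken to every GENCODE v44 TSS on 23 chromosomes. Fragments and background at a summit were solved from the fold and the Poisson −log10 p. H3K27me3 overlap meant 1 bp. Gene names came from GENCODE v44 and sequence from hg38. Motifs were read as exact letters on both strands within 100 bp of the summit. Beside E2F, AP-1 and the CTCF core these were CRE TGACGTCA, TEAD (GGAATGN, the last base pyrimidine), RUNX (TGTGGTN, the same), ETS CCGGAAG, NFY (CCAATNN, a strong base and then a purine), SP/KLF GGGGCGG, NRF1 GCATGCG, YY1 AAGATGGC, E-box CACGTG, C/EBP TTGCNNAA, NF-kB GGGANTTTC, STAT TTCCNGGAA, the word AGATAA of GATA factors, FOX TGTTTAC and ZBTB33 TCTCGCG. Matches may overlap one another, and every match to the longer E2F motif (with 1 more T in front) is also an E2F match. Named regions were the 12 strongest, the regions of the 6 genes nearest to most members, up to 3 per gene list, 3 per H3K27me3 class, those at the limits of the rule and the strongest with and without motifs for the printed sequences. Some items that these rules select are not reported here. Overlap, distance, fragment and motif functions were tested on simulated data. Python 3.11.15, pysam 0.24.0, scipy 1.17.1 and BLAST+ 2.17.0 were used.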

Additional observations from a re-analysis of the deposited data

How the results depend on the processing

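With 1 library per condition, no replicate could be left out and no paired analysis was possible because no condition had replicates. Depth is unknown, so a region near the calling limit may have carried signal in DMSO. Requiring a −log10 q of at least 5 left 1155 regions and one of at least 10, an alternative chosen after seeing the data, left 545. In that order these settings gave a median fold of 5.465 and 6.988, an intron share of 51.17% and 51.01%, a share within 10 kb of a TSS of 53.85% and 63.85%, an E2F share of 21.39% and 30.64% and an AP-1 share of 16.8% and 24.59%. The H3K27me3 difference was 6.239 points at 10 or more. Summit fragments over the lowest background gave a median of 8.236. With protein-coding genes only, the intron share was 38.6% and the share within 10 kb of a TSS 23.05%. A window of 50 bp on each side gave 8.834% for E2F and 5.754% for AP-1, and the whole peak 14.96% and 17.74%. The longer E2F motif gave 2.71%. The H3K27me3 difference was 1.893 points with H3K27me3 peaks of at least 2, 0.4083 points with at least 5 and 6.273 points when the summit had to lie inside. Other distances, overlaps and midpoints left the remaining values within their intervals, as did leaving out repeated sequence or regions similar to RN7SL1, both chosen after seeing the data, and numbers of regions within 1.5 times. The causes of these shifts were not tested beyond what each setting removes.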

Other observations

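A share of the regions resembled one another in sequence. When the windows within 100 bp of each summit were compared with each other (blastn, at least 75% identity over 100 bp), 451 regions (16.7%) were similar to at least 1 other, in 37 families. The same comparison was not run on other peaks or on genome windows, so it does not set these regions apart. The largest family held 260 regions, of which 63 had a −log10 q of at least 10, 16 an E2F match and 20 an AP-1 match. The strongest member of this family was the CLOCK region. In 179 of the 260, the window matched RN7SL1, the 7SL RNA from which Alu elements derive. Over all regions, 187 windows (6.94%, exact interval 6.01 to 7.97) matched RN7SL1, against 4.70% of shared distal peaks and 5.02% of DMSO-only distal peaks. Among the regions the share was 4.87% (3.85 to 6.07) for a −log10 q under 5 and 10.1% (7.69 to 12.9) for 10 and over. The other classes were not divided by strength for this match, and genome windows were not compared. Regions similar to RN7SL1 held an E2F match at 6.42% and an AP-1 match at 5.35%. The next families held 32 and 27 regions, and 10 of the 27 had an AP-1 match. The median 31-base word of the window occurred only once in the genome for 92.8% of the regions and at least 10 times for 112 of them. Of these 112, 83 matched RN7SL1. How reads from such copies were placed was not tested.

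The densest 1-Mb stretch, chr1:181000001-182000000 around CACNA1E and IER5, held 18 regions, 12 shared distal peaks and 44 DMSO-only distal peaks. The stretch chr11:115000001-116000000 around CADM1 held 16, 8 and 70. Another region lay within 10 kb of 337 regions (12.5%).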
